A study of Bos taurus with 20 samples.

Results

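The glucocorticoid receptor gene NR3C1 and 9 genes that it is known to induce were followed in the udder of cows with E. coli mastitis. The 10 genes were chosen by name, and every probe set that the array's annotation gives to 1 of them was taken. Of these, 7 were on the array, among 9156 genes with a symbol of their own, namely NR3C1, FKBP5, DUSP1, ERRFI1, ZBTB16, CEBPD and SGK1. They have 15 probe sets. TSC22D3 (also called GILZ), PER1 and KLF9 have no probe set under these symbols and were not analysed here.

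Tissue of 20 mammary glands, the 4 glands of each of 5 midlactating Holstein Friesian cows, was measured on 1 Affymetrix Bovine Genome Array each. In each cow 1 CFPD gland was challenged with 100 cfu of E. coli and given 300 mg of the antibiotic cefapirin together with 20 mg of the synthetic glucocorticoid prednisolone, 1 CF gland was challenged and given 300 mg of cefapirin alone, 1 CNT gland was challenged and not treated, and 1 NC gland was neither challenged nor treated. Cows 1, 2 and 3, numbered here in the order of their labels, were sampled 48 h post challenge after infusions at 4, 12, 24 and 36 h, and cows 4 and 5 were sampled at 24 h after infusions at 4 and 12 h, so that n = 3 and n = 2 per group. The NC gland was the right front and the CNT gland the left front gland in every cow, so that position and group cannot be told apart for these. All CF and CFPD glands were rear glands. Treatment and rear position therefore cannot be told apart where treated glands are compared with CNT or NC glands. All 4 glands of a cow shared 1 circulation.

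In cows 1 and 4 it is in doubt which rear gland was CF and which CFPD, a doubt that comes from the study's supplementary tables and was not retested here. As labelled, the CFPD gland was the left rear gland in cows 1 and 4 and the right rear gland in the other 3 cows. With the labels of these cows exchanged, CFPD minus CF becomes right rear minus left rear in all 5 cows. The comparisons of the members that involve CF or CFPD glands were therefore repeated with the exchange.

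Glucocorticoids such as cortisol and prednisolone enter cells and bind the glucocorticoid receptor, which waits in the cytoplasm in a complex with heat shock proteins. The bound receptor moves to the nucleus, where it binds DNA and switches on genes that restrain inflammation, alter metabolism and limit its own signal, and it also interferes with the induction of cytokine genes. In the mammary gland glucocorticoids are needed for the synthesis of milk proteins, and they are given in some mastitis treatments to reduce inflammation.

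The values are log2 signals after robust multichip averaging (RMA) by the authors, and 1 unit is a doubling. Medians of the arrays lay between 7.12 and 7.31 on this scale. The mammary tissue showed its own markers, since the summed signal of 9 epithelial genes, casein genes and keratins among them, was 17.58 to 17.74 in CFPD, 17.64 to 17.72 in CF, 17.35 to 17.51 in CNT and 17.62 to 17.73 in NC glands. The summed signal of the 6 measured neutrophil genes of a list of 10 was 10.17 to 10.62 in CFPD, 9.62 to 10.51 in CF, 12.98 to 15.38 in CNT and 9.19 to 10.37 in NC glands. The 7 measured of 8 monocyte and macrophage genes summed to 12.48 to 13.13 in CFPD, 11.98 to 13.33 in CF, 12.91 to 14.03 in CNT and 11.69 to 13.17 in NC glands. Each sum adds linear signals before the log2 is taken, so that its strongest genes weigh most. In such bulk tissue, fewer cells of a type and less RNA per cell cannot be told apart.

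A probe set was called when its adjusted p (limma, Benjamini and Hochberg over all probe sets tested) was under 0.05 and its log2 fold change was at least 1 in size. Of the 15 probe sets, 11 from 7 genes were high enough to be tested at 24 h, and 10 from 6 genes at 48 h and over all 5 cows. FKBP5 was tested at 24 h only. The 4 probe sets tested nowhere, 1 of NR3C1, 1 of SGK1 and 2 of ERRFI1, lay at or under the median of their array in all 20 glands.

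NR3C1 encodes the receptor that prednisolone and cortisol bind. Its higher probe set read 9.26, 8.90, 10.24, 9.10 and 9.81 in the CFPD glands of cows 1 to 5, and 9.54, 9.90, 9.95, 9.51 and 9.87 in their CF glands. It read 9.45, 9.78, 9.59, 9.03 and 8.92 in the CNT glands and 9.84, 9.49, 10.04, 9.47 and 10.01 in the NC glands. CNT glands lay below the NC gland of the same cow in 4 of 5 cows, by the most in cow 5, and above it in cow 2, and the groups overlapped.

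At 24 h NR3C1 was not called, with a log2 fold change of -0.77 in CNT minus NC glands (SE 0.29, adjusted p = 0.199, n = 2 each), and with the cow as a block the adjusted p was 0.0474 at a fold change still under the limit. At 48 h the difference was -0.18 (SE 0.30, adjusted p = 0.735, n = 3 each). Over 5 cows, with the cow as a block, CNT minus NC was -0.42 (SE 0.19, adjusted p = 0.102), and the difference between the times was not called (0.58, SE 0.46, adjusted p = 0.818). The lower NR3C1 probe set, at 5.69 to 6.83 in all glands, also read lower in CNT than in NC glands in 4 of 5 cows.

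NR3C1 was lower in the CFPD gland than in the CF gland of 4 cows, by 0.29 in cow 1, 1.01 in cow 2, 0.41 in cow 4 and 0.06 in cow 5, and higher by 0.29 in cow 3. The mean difference was -0.29 (95% interval -0.69 to 0.10, adjusted p = 0.9998). With the labels exchanged it was -0.02, with CFPD lower in cows 2 and 5 alone. Cow 2 had the only difference beyond 1 in size. In CF minus CNT glands NR3C1 was positive in 5 of 5 cows, by 0.40 on average (SE 0.19, adjusted p = 0.115), and with the labels exchanged in 4 of 5, by 0.26.

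The 5 genes with a single symbol whose values went most closely with those of NR3C1 over the 20 glands, after the mean of each cow was subtracted, were GOLGA4 (r = 0.94), HBS1L (r = 0.91), ALDH7A1 (r = 0.91), CHCHD7 (r = 0.87) and CHD9 (r = 0.87). GOLGA4 is a golgin of the trans-Golgi network, and CHD9 is a chromatin remodeller. These are descriptions over glands that share cows and challenge.

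**Figure D1:**
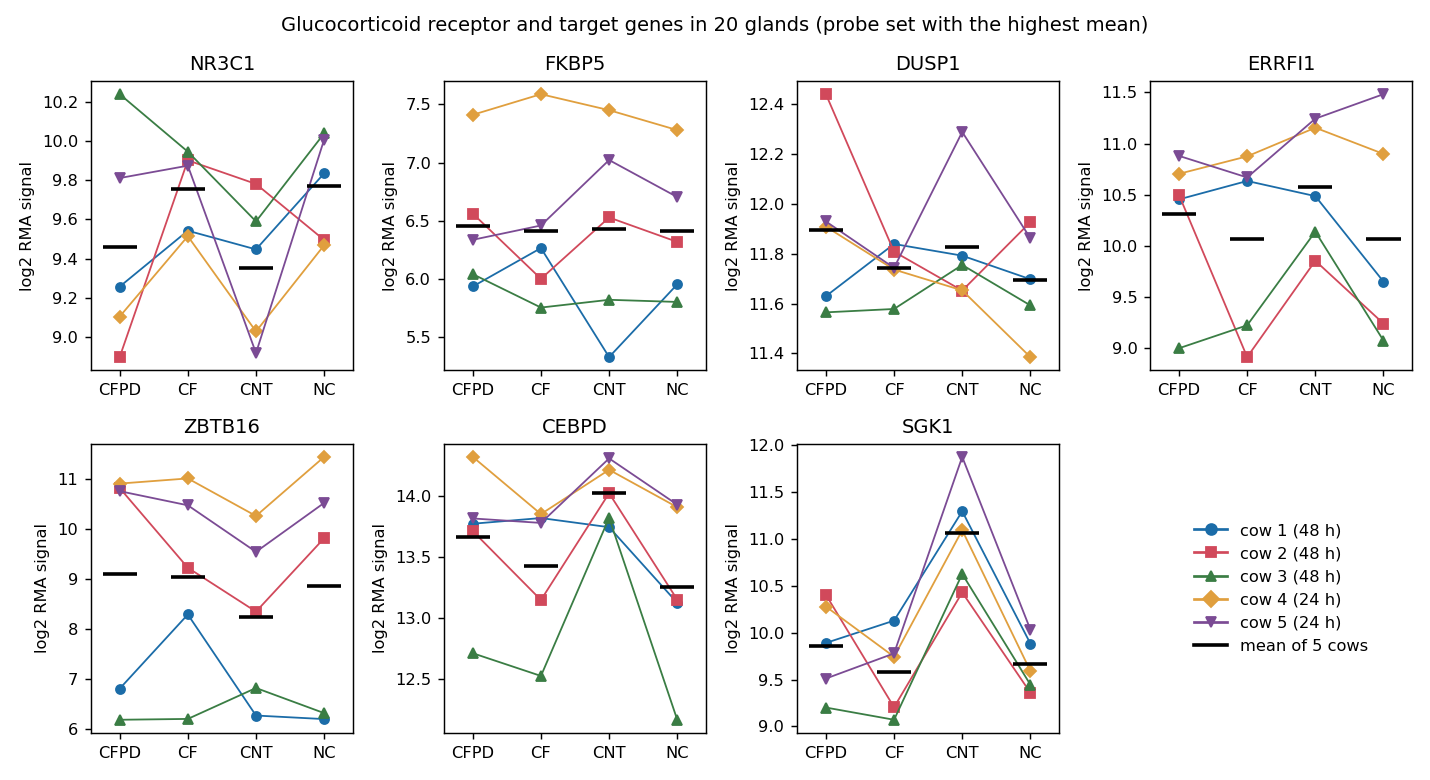
Log2 RMA signal of the 7 genes (probe set with the highest mean) in the CFPD, CF, CNT and NC gland of each cow. Lines join the glands of 1 cow and black bars are means of 5 cows. SGK1 is highest in the CNT gland of every cow, whereas ZBTB16 is low in cows 1 and 3 and FKBP5 is highest in cow 4 in every group.

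SGK1 encodes a kinase that regulates ion channels and transporters and is induced by glucocorticoids as well as by other stimuli. It showed the clearest pattern of the 7 genes. Its higher probe set read 9.89, 10.40, 9.20, 10.28 and 9.51 in the CFPD glands of cows 1 to 5, against 11.30, 10.43, 10.63, 11.09 and 11.88 in their CNT glands. It read 10.13, 9.20, 9.07, 9.74 and 9.78 in the CF glands and 9.88, 9.36, 9.45, 9.59 and 10.03 in the NC glands. The CNT gland was the highest of its cow in all 5 cows, and no CNT value overlapped those of another group, although CFPD of cow 2 came within 0.03 of its CNT gland.

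SGK1 was 2.64-fold higher in CNT than in NC glands over 5 cows, a log2 fold change of 1.40 (SE 0.22, adjusted p = 0.000321), and the second probe set gave 1.64 (SE 0.28, adjusted p = 0.000477). Both were higher in 5 of 5 cows, by 1.07 to 1.84 and 1.17 to 2.21. Fitted by time without the cow, neither passed. The first gave 1.67 at 24 h (SE 0.34, adjusted p = 0.0569) and 1.22 at 48 h (SE 0.36, adjusted p = 0.0751), and the second had adjusted p-values of 0.0801 and 0.0584. With the cow as a block both were called at both times, with adjusted p-values of 0.0213 and 0.0296 at 24 h and 0.0181 and 0.0192 at 48 h.

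SGK1 was lower in both treated groups than in CNT glands. Over 5 cows the log2 fold change was -1.21 in CFPD minus CNT glands (SE 0.22, adjusted p = 0.00135), and for the second probe set -1.45 (adjusted p = 0.00158). In CF minus CNT glands it was -1.48 (SE 0.22, adjusted p = 0.000214) and -1.79 (adjusted p = 0.000253). With the labels exchanged the first probe set gave -1.27 for CFPD and -1.42 for CF, and both probe sets were still called. Both comparisons use the same CNT glands.

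The CFPD difference of SGK1 varied most, by -1.41, -0.03, -1.43, -0.82 and -2.37 in cows 1 to 5, against -1.17 to -2.10 for CF. Without cow 5 the CFPD difference of the first probe set was -0.92 and was no longer called, while that of the second still was. Against NC glands SGK1 was not called in CFPD (0.19, adjusted p = 0.99996) or CF glands (-0.08, adjusted p = 0.9996). The remaining SGK1 probe set, at 4.52 to 5.35 in all glands, read higher in CFPD and in CF than in CNT glands in all 5 cows. It read lower in CNT than in NC glands in 4 of 5 cows, by 0.22 on average.

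SGK1 and the neutrophil genes were high in the same glands. Over the 20 glands, after the mean of each cow was subtracted, SGK1 and the summed neutrophil signal had r = 0.93. With the monocyte and macrophage sum r was 0.83, and with the epithelial sum -0.90. The epithelial sum follows its strongest genes, and 2 of the 8 tested epithelial genes had a CNT minus NC mean above 0 over 5 cows. Cow 5 had the highest SGK1 value, 11.88, and the highest summed neutrophil signal, 15.38, both in its CNT gland. Within cow 2 SGK1 of the CFPD gland, 10.40, was close to that of the CNT gland, 10.43, while the neutrophil sums were 10.42 and 12.98. The part of these cells in the SGK1 difference was not tested.

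**Figure D2:**
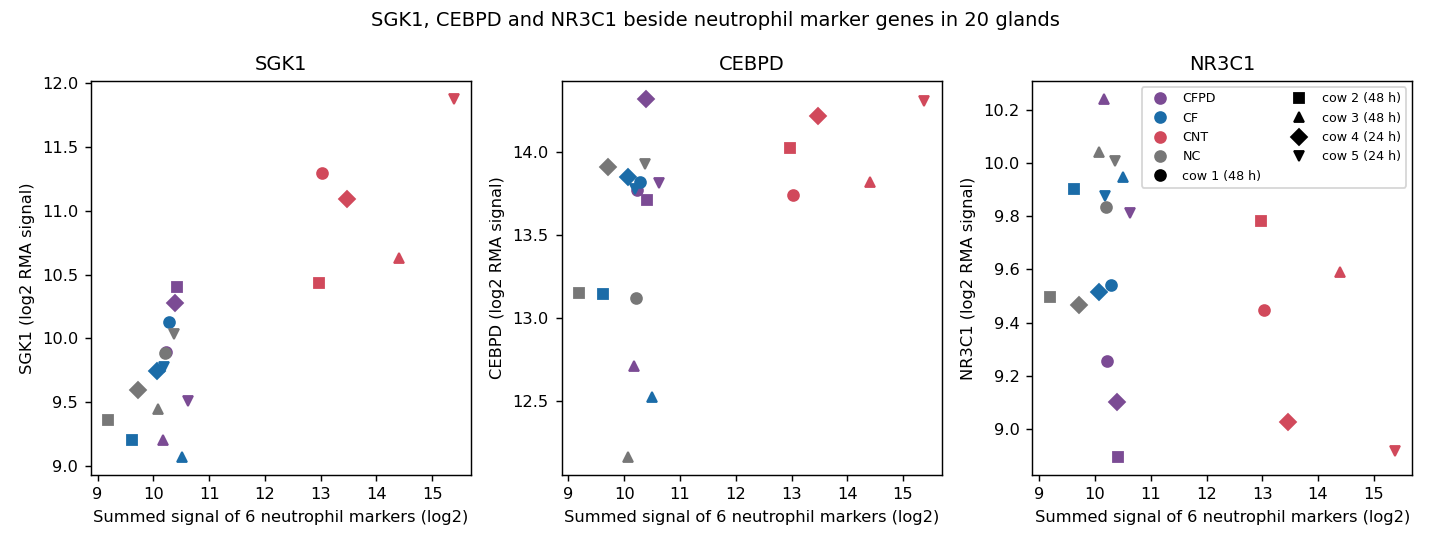
SGK1, CEBPD and NR3C1 (log2 RMA signal, vertical axes) against the summed signal of 6 neutrophil marker genes (log2, horizontal axes) in 20 glands, coloured by group and shaped by cow. The 5 CNT glands stand apart at neutrophil sums of 12.98 to 15.38, and SGK1 is at 10.43 or more in each of them.

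CEBPD is a leucine zipper transcription factor of the acute phase response that both glucocorticoids and cytokines induce. It had the highest values of the 7 genes. Its highest probe set read 13.77, 13.71, 12.71, 14.32 and 13.82 in the CFPD glands of cows 1 to 5, and 13.82, 13.15, 12.52, 13.85 and 13.78 in the CF glands. It read 13.74, 14.02, 13.82, 14.22 and 14.31 in the CNT glands and 13.12, 13.15, 12.16, 13.91 and 13.93 in the NC glands. The CNT gland exceeded the NC gland within every cow, most in cow 3, while the groups overlapped across cows.

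Over 5 cows the CNT minus NC difference of CEBPD was 0.77 (SE 0.18, adjusted p = 0.00436), 1.16 (SE 0.27, adjusted p = 0.00519) and 0.92 (SE 0.26, adjusted p = 0.0142) for its 3 probe sets, positive in 5 of 5 cows for each. Only the second reached the fold limit and was called, and without cow 3 it was 0.85 and no longer called. At 48 h the 3 values were 1.05, 1.48 and 1.11 (adjusted p = 0.124, 0.0846 and 0.0775), and with the cow as a block the first and second were called (adjusted p = 0.0197 and 0.0279). At 24 h they were 0.34, 0.67 and 0.63, with adjusted p-values of 0.297 to 0.631, and no difference between the times was called.

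Between treated and CNT glands CEBPD differed by less than the fold limit. The second probe set differed by -0.53 in CFPD minus CNT (SE 0.27, adjusted p = 0.158) and by -0.89 in CF minus CNT glands (SE 0.27, adjusted p = 0.0227). With the labels exchanged these were -0.67 (adjusted p = 0.0929) and -0.75 (adjusted p = 0.0557). In cows 1 and 4, as labelled, the CFPD gland was above the CNT gland, by 0.33 and 0.17, and in cows 2, 3 and 5 it was below.

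ERRFI1 encodes an inhibitor of the epidermal growth factor receptor. Its highest probe set read 10.46, 10.50, 9.0, 10.71 and 10.88 in the CFPD glands of cows 1 to 5, and 10.63, 8.91, 9.22, 10.88 and 10.67 in the CF glands. It read 10.49, 9.86, 10.14, 11.16 and 11.24 in the CNT glands and 9.65, 9.24, 9.07, 10.90 and 11.48 in the NC glands. CNT exceeded NC in cows 1 to 4 and was below it in cow 5, and cows 4 and 5, both sampled at 24 h, had the highest values of each group.

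Over 5 cows ERRFI1 differed by 0.51 in CNT minus NC glands (SE 0.26, adjusted p = 0.144), and its second probe set by 0.72 (SE 0.25, adjusted p = 0.0362), positive in 5 of 5 cows but under the fold limit. The 2 ERRFI1 probe sets that were too low to be tested ran the other way from these in the means, by -0.13 and -0.32. In CFPD minus CNT glands the highest probe set differed by -0.27 (95% interval -0.82 to 0.28), with CFPD above CNT in cow 2. The 2 low probe sets had higher means in CFPD than in CNT glands, 6.72 against 6.51 and 5.88 against 5.51. The second tested probe set read lower in CFPD than in CNT glands in 5 of 5 cows, by 0.55 on average (adjusted p = 0.109), and with the labels exchanged in 4 of 5, by 0.36. In CF minus CNT glands it was -0.65 (adjusted p = 0.0561), and with the exchange -0.84 (adjusted p = 0.00892), under the fold limit.

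DUSP1 encodes a phosphatase that inactivates MAP kinases and so limits cytokine production. It was high in every gland, at 11.39 to 12.44 in all 20 glands. Its values were 11.63, 12.44, 11.56, 11.91 and 11.93 in the CFPD glands, 11.84, 11.81, 11.58, 11.74 and 11.74 in the CF glands, 11.79, 11.65, 11.75, 11.65 and 12.29 in the CNT glands and 11.70, 11.93, 11.59, 11.39 and 11.86 in the NC glands of cows 1 to 5. All groups overlapped, and the CFPD gland of cow 2 and the CNT gland of cow 5 were the highest. CNT minus NC was 0.13 over 5 cows (95% interval -0.15 to 0.42, adjusted p = 0.470), and by quantile normalization -0.01.

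FKBP5 encodes a co-chaperone that lowers the affinity of the receptor for its hormone and is a usual readout of glucocorticoid exposure. On this array its only probe set was low, above the median in 4 of 20 glands. It read 5.94, 6.56, 6.04, 7.41 and 6.34 in the CFPD glands and 6.27, 6.00, 5.76, 7.59 and 6.46 in the CF glands of cows 1 to 5. It read 5.33, 6.53, 5.82, 7.45 and 7.02 in the CNT glands and 5.96, 6.32, 5.80, 7.28 and 6.70 in the NC glands. All 4 glands of cow 4 were higher than any gland of another cow, and at 24 h CNT minus NC was 0.24 (SE 0.48, adjusted p = 0.818).

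ZBTB16 encodes a zinc finger transcription factor that is among the strongly induced targets in human cells. Here it differed mainly between cows. It read 6.81, 10.82, 6.18, 10.91 and 10.76 in the CFPD glands and 8.29, 9.23, 6.20, 11.02 and 10.48 in the CF glands of cows 1 to 5. It read 6.27, 8.35, 6.82, 10.27 and 9.55 in the CNT glands and 6.20, 9.82, 6.32, 11.45 and 10.53 in the NC glands. Cows 1 and 3 were low and cows 2, 4 and 5 high in every group. ZBTB16 lay above the array median in 13 of 20 glands, and in cows 1 and 3 only in the CF gland of cow 1. Of the probe sets tested 0.0849% had a range over the 5 NC glands as wide as its 5.25.

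The order of the cow means was the same for ZBTB16 and FKBP5 at the top. Cow 4 was the highest, at 10.91 for ZBTB16 and 7.43 for FKBP5, followed by cow 5 at 10.33 and 6.63 and cow 2 at 9.56 and 6.35. Cows 1 and 3 were the lowest, at 6.89 and 6.38 for ZBTB16 and 5.87 and 5.86 for FKBP5. Outside cow 4 every FKBP5 value lay under the array median. The cows sampled at 24 h, 4 and 5, were the highest for both genes, and time point and cow cannot be told apart. They were also the highest for CEBPD (14.07 and 13.96) and ERRFI1 (10.91 and 11.07, highest probe set of each), but not for DUSP1 or SGK1.

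Within cows, ZBTB16 was lower in CNT than in NC glands in cows 2, 4 and 5, by 1.47, 1.18 and 0.98. It was higher in cows 1 and 3 by 0.07 and 0.50, where both glands lay under the array median. At 24 h the difference was -1.08 (SE 0.37, adjusted p = 0.164), and with the cow as a block it was called (adjusted p = 0.0152). At 48 h it was -0.30 (SE 1.29, adjusted p = 0.910), and over 5 cows -0.61 (SE 0.38, adjusted p = 0.231). ZBTB16 was higher in CFPD than in CNT glands in 4 of 5 cows, by 0.85 on average (SE 0.38, adjusted p = 0.108), and with the labels exchanged by 1.17, which was called (adjusted p = 0.0193). In CF minus CNT glands it was 0.79 (SE 0.38, adjusted p = 0.125), higher in 4 of 5 cows as well, and with the labels exchanged 0.48 (adjusted p = 0.300). Both differences turned on single cows. Without cow 3, whose values all lay under the array median, both were called, at 1.22 for CFPD and 1.15 for CF. By contrast, CFPD minus CNT was 0.44 without cow 2 and CF minus CNT was 0.49 without cow 1.

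**Figure D3:**
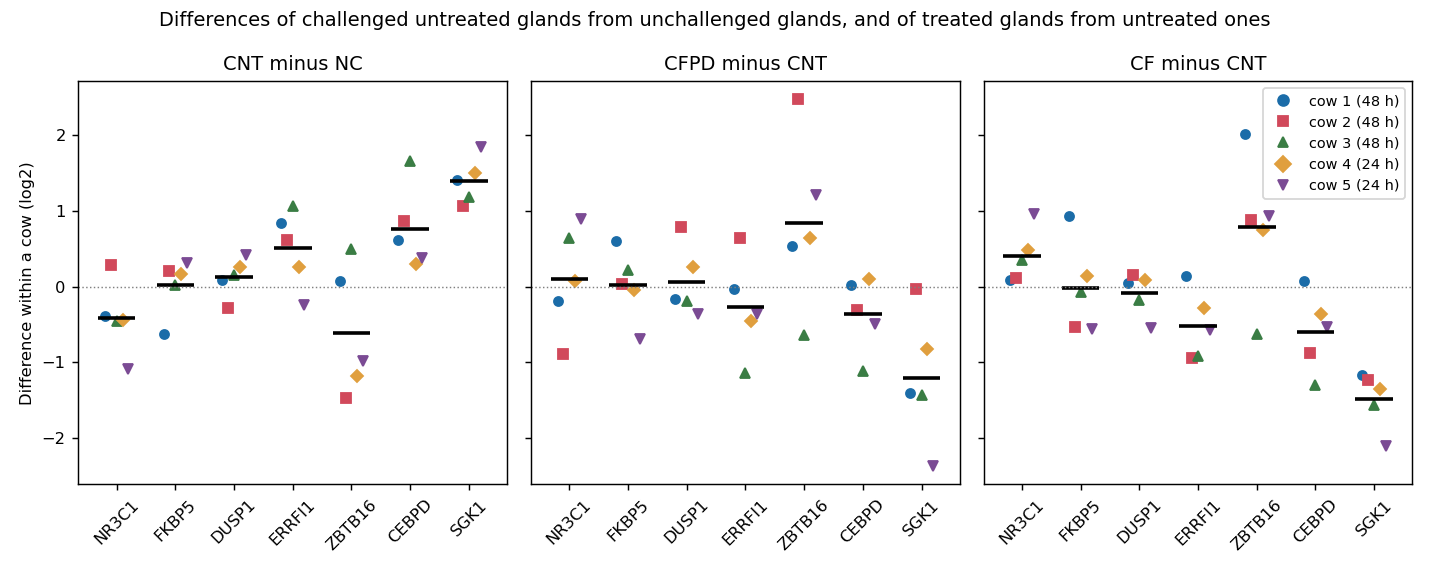
Log2 difference within each cow for the 7 genes (probe set with the highest mean), in CNT minus NC glands on the left, CFPD minus CNT glands in the middle and CF minus CNT glands on the right, labels as deposited. Points are cows and black bars are means. SGK1 lies above 0 in all 5 cows on the left and below 0 in all 5 in both other panels, which share their CNT glands.

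Counted together, 3 of the 10 probe sets tested over 5 cows were called in CNT minus NC glands, all higher (both of SGK1 and 1 of CEBPD), where 4.78% of 12958 probe sets were called. In CFPD minus CNT and in CF minus CNT glands 2 of 10 were called, both lower and both of SGK1, beside 3.56% and 4.45% of all. No member was called against NC glands in CFPD or CF glands by limma, where 0% of all were called and 2 and 0 of the 10 had an unadjusted p under 0.05, beside 1.89% and 1.86% of all. The 2 were probe sets of 1 gene, CEBPD, higher in CFPD than in NC glands by 0.41 and 0.62 as labelled. Their values went together at r = 0.98 after the mean of each cow was subtracted. The 5-cow fits against CNT and NC were added once the values were known.

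Fitted by time point without the cow, none of the members was called by limma in any comparison. Of all probe sets 2.39% at 24 h and 2.66% at 48 h were called in CNT minus NC, 1.4% and 1.21% in CFPD minus CNT and 2.14% and 1.64% in CF minus CNT glands. In CNT minus NC glands 4 of 11 member probe sets at 24 h and 6 of 10 at 48 h had an unadjusted p under 0.05, as did 20.7% and 24.3% of all. In CFPD minus CNT glands it was 3 of 11 and 2 of 10, beside 18.5% and 18.7% of all, and in CF minus CNT glands 4 of 11 and 2 of 10, beside 21.4% and 20.9%, so that the share of the members at 48 h was near that of all probe sets in both. Neither of the tested SGK1 probe sets overlapped between the groups of 5 in any of the 3 comparisons. The same lack of overlap held for 9.14% of all probe sets for CNT and NC, 7.52% for CFPD and CNT and 7.29% for CF and CNT glands. The untested SGK1 probe set overlapped for CNT and NC and for CF and CNT glands, and lay higher in CFPD than in CNT glands.

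Prednisolone added to cefapirin is the comparison that bears on the receptor most directly. None of the members differed between CFPD and CF glands past the threshold, at either time or over 5 cows (limma, 0 of 10 with an unadjusted p under 0.05, beside 1.22% of all), and 0% of all probe sets were called. The means over 5 cows were 0.27 and 0.34 for the 2 SGK1 probe sets, 0.24, 0.36 and 0.15 for CEBPD, 0.24 and 0.10 for ERRFI1, 0.15 for DUSP1, 0.05 for ZBTB16 and -0.29 for NR3C1. The 95% intervals reached from -0.20 to 0.75 for SGK1, from -0.13 to 0.62 for CEBPD, from -0.30 to 0.79 for ERRFI1, from -0.14 to 0.44 for DUSP1 and from -0.75 to 0.86 for ZBTB16 (highest probe set of each). Each interval holds 0, and any true difference within an interval is compatible with the values of these 5 cows. An exact sign-flip test of 5 differences cannot go below a two-sided p of 0.0625.

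The cows went different ways. In cow 2, 9 of the 10 probe sets, all those of the target genes, were higher in the CFPD gland and NR3C1 was lower. In cow 1 none of the 10 was higher in the CFPD gland. In cows 3, 4 and 5, 4, 6 and 7 of 10 were higher.

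Cow 2 had the largest differences. The CFPD gland exceeded the CF gland by 1.60 for ZBTB16, 1.58 for ERRFI1, 1.20 and 1.57 for SGK1, 0.99 for the second CEBPD probe set, 0.63 for DUSP1 and 0.56 for FKBP5. With NR3C1 at -1.01, 5 of the 10 tested probe sets differed by at least 1, where 2.45% of all probe sets did in this cow. Cow 2 also had the largest difference in summed neutrophil signal, 10.42 in the CFPD and 9.62 in the CF gland, whose part in these values was not tested. Without cow 2 the means over the other 4 cows were 0.040 for SGK1, 0.16 for CEBPD, 0.034 for DUSP1, -0.091 for ERRFI1, -0.33 for ZBTB16 and -0.12 for NR3C1.

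In cow 1 ZBTB16 was lower by 1.49 in the CFPD gland, 1 of 10 probe sets beyond the limit beside 0.216% of all. With the labels exchanged this becomes a CFPD gland higher by 1.49, close to that of cow 2, and the mean of ZBTB16 over 5 cows becomes 0.69. None of the 10 probe sets differed by 1 or more in cows 3, 4 and 5, beside 0.409%, 0.803% and 0.378% of all. In cow 4 CEBPD and SGK1 were higher in the CFPD gland by 0.47 and 0.54, and FKBP5 and ZBTB16 were lower by 0.18 and 0.10.

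With the exchange other genes had the larger means, and none of the 10 probe sets tested was called. FKBP5, which was not tested over 5 cows, was higher in the CFPD gland in 2 of 5 cows as labelled (mean 0.04) and in 4 of 5 with the exchange (mean 0.25). ERRFI1 was higher in 2 cows as labelled and in 4 with the exchange, with a mean of 0.38, whereas the mean of CEBPD became 0.07 and that of SGK1 0.15. DUSP1 had a mean of 0.15 as labelled and 0.17 with the exchange, higher in 3 of 5 cows either way.

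**Figure D4:**
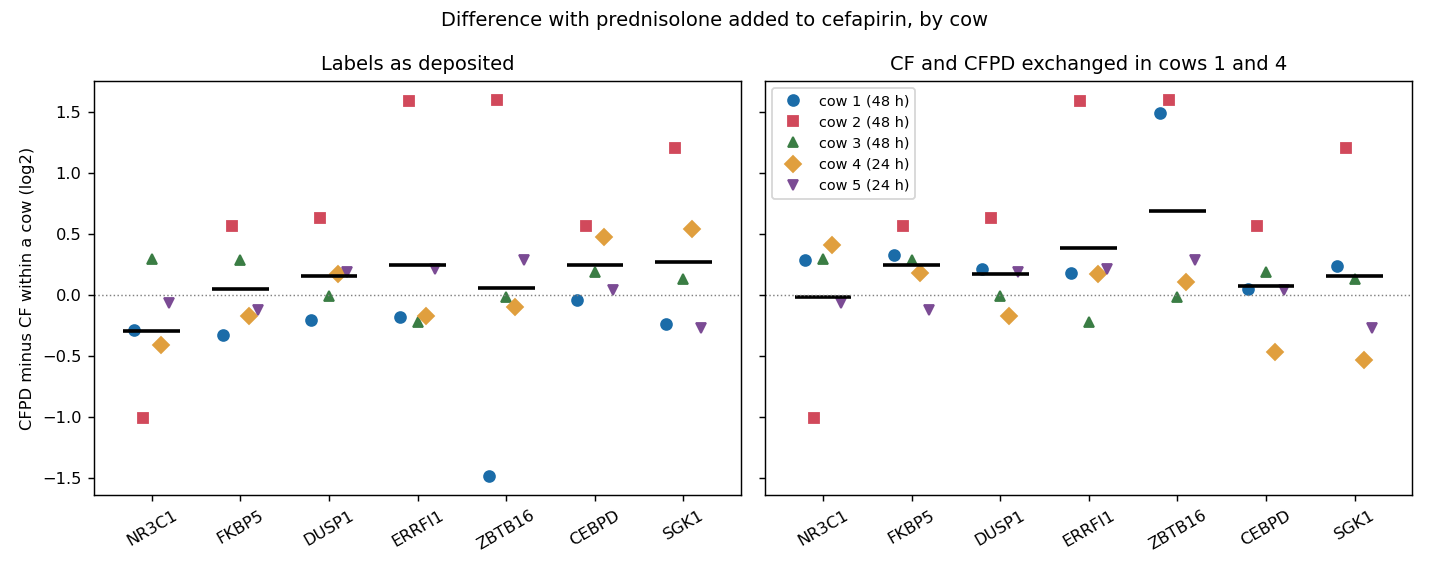
Log2 difference of the CFPD from the CF gland of each cow for the 7 genes (probe set with the highest mean), with the labels as deposited on the left and with CF and CFPD of cows 1 and 4 exchanged on the right. Points are cows and black bars are means. In both panels cow 2 has the lowest value of NR3C1 and the highest of each other gene, and ZBTB16 of cow 1 is at -1.49 on the left and 1.49 on the right.

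Of 16 further genes that make up the machinery of the receptor, its chaperones, the enzymes that activate or inactivate its ligand and its coregulators, 11 were on the array and 10 were tested over 5 cows. None was called in CNT minus NC or in CFPD minus CF glands by limma, where 3 and 1 of the 10 had an unadjusted p under 0.05, beside 42.9% and 1.22% of all probe sets. Their median differences were 0.05 and -0.02, beside 0.07 and 0.01 over all probe sets tested. HSD11B1, the enzyme that regenerates cortisol from cortisone and that was singled out after its values were seen, read higher in the CFPD than in the CF gland in 4 of 5 cows as labelled, with a mean of 0.49, and lower in cow 4. Without cow 5, where the difference was 1.43, the mean was 0.26.

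A second list held 25 other genes known to be induced by glucocorticoids in at least 1 mammalian tissue, of which 19 were on the array and 16 tested over 5 cows. In CNT minus NC glands 6 were called higher and 1 lower, beside 4.78% of all probe sets in either direction, with a median of 0.74 beside 0.07 over all. The largest were MT2A, a metallothionein (2.53, adjusted p = 0.00146), MAOA, the enzyme that oxidises monoamines (1.67, adjusted p = 1.99e-05), ANGPTL4, an inhibitor of lipoprotein lipase (1.56, adjusted p = 0.00308), and NFKBIA, the inhibitor of NF-kB (1.29, adjusted p = 0.0140). KLF15, a transcription factor of metabolism named here as the one called lower, after its value was seen, had -1.06 (adjusted p = 0.00211). IL1R2, the decoy receptor of interleukin 1, was high enough to be tested at 24 h alone, with a mean of 9.22 in CNT and 5.44 in NC glands. Its call there (limma, 3.79, adjusted p = 0.0137) is no independent support. The NC mean lay under the array medians, and the CNT glands alone could pass the filter. Within cows 1 to 5, at both times, IL1R2 was higher in the CNT gland by 1.64, 1.40, 2.51, 3.32 and 4.25.

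Part of the same list was called lower in treated glands. In CFPD minus CNT glands 3 of 16 passed, MT2A (-1.71), MAOA (-1.24) and ANGPTL4 (-1.11), beside 3.56% of all probe sets. In CF minus CNT glands 4 of 16 passed, MT2A (-2.20), NFKBIA (-1.45), ANGPTL4 (-1.43) and MAOA (-1.25), beside 4.45%. In CFPD minus CF glands none was called by limma and 0 had an unadjusted p under 0.05, while 15 of 16 had a mean above 0 and the median was 0.08, beside 0.01 over all. Of these, MT2A, ANXA1, GLUL and MAOA were higher in 2 of 5 cows only, with cow 2 the largest at 3.44, 1.28, 1.10 and 0.55. The others with a mean above 0 were higher in 3 or 4 of 5 cows, but single cows were large here too. The largest difference was that of cow 4, whose labels are in doubt, for NFKBIA (2.39), ZFP36 (1.37), DDIT4 (1.07) and CEBPB (0.88). It was that of cow 2 for ANGPTL4 (1.73), PDK4 (1.09), RASD1 (0.62), PER2 (0.43) and KLF15 (0.31). For GADD45B it was 0.26 in cow 3 and for CRISPLD2 0.30 in cow 5. With the labels exchanged 9 of 16 were above 0 and the median was 0.09.

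Another list held 13 inflammatory genes that glucocorticoids are known to repress, of which 5 were high enough to be tested over 5 cows. In CNT minus NC glands, where 4.78% of all probe sets were called, 4 were called higher, the chemokine genes CXCL2 (4.59, adjusted p = 0.00100), CXCL8 (4.52, adjusted p = 0.000619) and CCL2 (2.36, adjusted p = 0.000112) and the adhesion molecule gene ICAM1 (1.80, adjusted p = 0.00134). The same 4 were called lower in CFPD minus CNT glands (3.56% of all called), at -2.73, -2.78, -1.84 and -1.23 in this order, and in CF minus CNT glands (4.45% of all called), at -3.75, -3.69, -2.77 and -2.05. In CFPD minus CF glands none was called by limma, 2 of 5 had an unadjusted p under 0.05 beside 1.22% of all, and the median of the 5 was 0.91 as labelled, above 0 in all 5, and -0.49 with the labels exchanged, below 0 in all 5. The sign of the list depended on the labels of cows 1 and 4, which were exchanged together. In cow 4 CXCL2, CXCL8, ICAM1 and CCL2 were higher by 5.81, 5.18, 2.67 and 2.26 in the gland labelled CFPD. In cow 1 they differed by -0.35, 0.28, 0.17 and 0.47.

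None of the members differed between the time points past the threshold in the fit of all arrays, for CNT minus NC or for CFPD minus CF (limma, 0 of 10 with an unadjusted p under 0.05 in each, beside 7.72% and 0.177% of all, and 0% of all called). The largest time difference for CNT minus NC was that of ERRFI1, 0.83 (SE 0.65, adjusted p = 0.818), and the times hold different cows. In the fits by time, CFPD minus CF, CFPD minus NC and CF minus NC gave no call among the members, with 0 of 11 probe sets at 24 h and 0 of 10 at 48 h at an unadjusted p under 0.05 and 0% of all called.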

How the data were processed

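Tissue RNA of 20 glands was hybridised by the authors to 1 array each. The authors deposited log2 signals, made with RMA in the Bioconductor package affy, with versions not given in the sources used here. Of 24128 probe sets, 112 controls were left out, and 13318 have 1 gene symbol, 86 several and 10724 none in the platform annotation, which can be old. Probe sets above the median of their array on at least 2 arrays at 24 h, 3 at 48 h or 5 of all 20 were tested, 13004, 13000 and 12958 in number.

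Each time point had its own fit of the 4 groups with limma 3.58.1 in R 4.3.3 without the cow, as the study's methods state no such term, and all 20 arrays with the cow as a fixed block for CFPD minus CF. That 5-cow fit was extended to the other comparisons after the values were known. P-values were adjusted over all probe sets of a comparison. Calls needed both thresholds, 0.05 for the adjusted p and 1 for the size of the log2 fold change, and intervals use the moderated variance. Samples of a cow pair by the animal. Their deviations from the group means correlated by 0.521 on average at 24 h (12 pairs, lowest 0.332). At 48 h the average was 0.448 (18 pairs, lowest 0.0624). With 2 cows at 24 h the deviations within a group mirror each other. Each r of that time therefore occurs in both cows, and the 12 pairs are not independent. Deviations of different cows correlated by -0.641 and -0.289. Subtracting the mean of so few cows makes such values negative, so they cannot show pairing. No 2 arrays were identical (highest r 0.995). Each group sample is a separate gland.

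The members and the gene lists were chosen with earlier results of these data known. Every member was named with its probe sets. Of the lists (receptor handling, other induced and repressed genes, and markers of neutrophils, monocytes and macrophages, lymphocytes and mammary epithelium) at most 4 called genes per comparison were named, by the probe set with the highest mean, with exceptions said in the text. Lymphocyte markers summed to 11.11 to 12.31 in CFPD, 11.20 to 11.71 in CF, 11.08 to 12.22 in CNT and 11.64 to 12.31 in NC glands, with CD5, CD79A and MS4A1 at or under the array median throughout. The fits were tested on simulated data. The alternatives were the block, all arrays in 1 fit, no filter, quantile normalization, median centring, a prior that was trended and robust, no fold minimum, exchanged labels, and each array or cow left out. Precision is limited by the number of arrays. The labels name the cisternal region as the tissue, and the study's methods the parenchyma. No column was of an unknown sample.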

Additional observations from a re-analysis of the deposited data

Results flagged for a closer look

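Of 30 sets of 5 within-cow differences (15 probe sets, CNT minus NC and CFPD minus CF), 2 held a cow that stood far from the other 4, and chance gives about 1 in 20. Both were CFPD minus CF in cow 2. The highest ERRFI1 probe set differed by 1.58 in cow 2, against -0.22 to 0.21 in the other cows. The lower NR3C1 probe set, which lay under the array median in all glands, differed by -0.61 in cow 2, against -0.14 to 0.04 in the other cows.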

How the results depend on the processing

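Fits by time that were paired, with the cow as a replicate block, called more of the members and of all probe sets. For CNT minus NC they called 3 member probe sets at 24 h and 4 at 48 h (6.1% and 5.17% of all), for CFPD minus CNT 2 at 24 h (4.97%), and for CF minus CNT 2 at 24 h and 2 at 48 h (5.91% and 3.98%), against 0 in each fit without the block, where 1.4% to 2.66% of all were called. All 20 arrays in 1 fit without the cow called 3 for CNT minus NC at 48 h, beside 3.49% of all. Exchanged labels called 1 for CFPD minus CNT at 24 h, beside 2.19% of all. Without a fold minimum the 5-cow fits called 6 for CNT minus NC and 4 for CF minus CNT, against 3 and 2, and 31.5% and 30.1% of all probe sets, so that 4 of 10 was near the share of all. For CFPD minus CF no alternative called any member.

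Leaving out 1 array or cow at a time gave 0 to 1 calls for CNT minus NC at 48 h, beside 0% to 2.04% of all. The 1 call came without the CNT gland of cow 1, where 1.44% of all were called. At 24 h such fits leave 1 gland in a group, and their calls are not given. Over 5 cows there were 2 to 4 calls for CNT minus NC, beside 4.22% to 4.96% of all. For CFPD minus CNT there were 1 to 3 (1 without cow 5), beside 2.85% to 4.36%, and for CF minus CNT 2 to 3, beside 3.82% to 4.43%. By quantile normalization the second CEBPD probe set gave 0.998 in CNT minus NC glands over 5 cows (adjusted p = 0.00951), under the fold limit.

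Among single genes, the sign turned only for differences that were not called. By quantile normalization ERRFI1 was -0.077 in CNT minus NC glands at 24 h, and DUSP1 was -0.013 in CNT minus NC and 0.061 in CF minus CNT glands over 5 cows. With an array or cow left out, CNT minus NC ranged at 24 h from -0.043 to 0.53 for FKBP5 and from -0.28 to 0.30 and -0.24 to 0.89 for the 2 tested ERRFI1 probe sets, and at 48 h from -0.090 to 0.13 for DUSP1 and from -0.92 to 0.89 for ZBTB16. CFPD minus CF ranged from -0.091 to 0.36 and -0.11 to 0.32 for the same 2 ERRFI1 probe sets and from -0.33 to 0.44 for ZBTB16. CFPD minus CNT ranged from -0.087 to 0.36 for NR3C1 and -0.11 to 0.17 for DUSP1, and CF minus CNT from -0.15 to 0.027 for DUSP1. The cause was not tested. The other 649 values of single genes kept their sign and their side of the threshold, 19 came to pass it and 3 no longer did.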
